A study of Oncorhynchus mykiss with 15 samples.

Results

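The genes of respiratory complex I were followed in rainbow trout (Oncorhynchus mykiss) liver. A gene was included when an entry of its deposited name begins with nduf, in either case, or when its deposited product description begins with NADH dehydrogenase [ubiquinone]. By this rule 81 of the 34965 genes of the table were included, under 44 gene names. They comprised 16 core subunit genes, 48 accessory subunit genes, 10 assembly factor genes and 7 genes of NDUFA4 and NDUFA4L2, which carry the family's name but are associated with complex IV. Levels did not enter this name rule, though the members were chosen with earlier results of these data known. NDUFAB1, NDUFC1 and NDUFAF2 were looked for by name and had no match, and the mitochondrially encoded ND subunits were not analysed here.

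Liver RNA of fish 150 days old was sequenced in 15 libraries of 5 groups with 3 each, namely N, the H groups H3h, H12h and H24h, and R3h. The series concerns hypoxia of different durations, and the labels give 3, 12 and 24 h for the H groups, 3 h for R3h and no time for N. The letters are not spelled out in the labels, no strain or genotype is given, and no N group is matched to each time, so condition and elapsed time cannot be told apart. The labels do not say whether libraries of a group are different fish, and p-values therefore measure only a spread between libraries that may be technical.

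Complex I is the entry point of the respiratory chain in the inner mitochondrial membrane. It passes electrons from NADH to ubiquinone and pumps protons out of the matrix. The core subunits hold the flavin, the iron-sulfur clusters and the quinone site, the accessory subunits surround this core and stabilise it, and assembly factors help to build the complex but are absent from its finished form. The liver, with its demand for ATP in biosynthesis and its use of fatty acids, depends strongly on this chain.

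Of the 81 genes, 73 had a mean of at least 0.5 FPKM (fragments per unit of gene length and of library size) over the libraries and were tested, namely 12 core, 47 accessory, 9 assembly and 5 complex IV-associated genes. The 8 that were not tested averaged below 0.5 FPKM and had at most 1.15 FPKM in any library. They were NDUFS1 (110520148, 0.08 to 0.67 FPKM), NDUFS8 (110488824, 0 to 0.04 FPKM, and 110505031, 0 to 0.3 FPKM) and NDUFV2 (110509147, 0 to 1.15 FPKM). The others were NDUFB9 (110488315, 0 to 0.03 FPKM), NDUFAF7 (110521042, 0 to 0.08 FPKM), NDUFA4 (110527700, 0 to 0.11 FPKM) and NDUFA4L2 (110532049, 0 to 0.18 FPKM). Of the 44 gene names, 15 had a single gene, 23 had 2 copies, 4 had 3 and 2 had 4, so copies are told apart below by their identifiers. Reads can be shared between near-identical copies, which makes the value of a single copy less sure than that of its pair. Of the 81 genes, 11 overlapped a gene on the opposite strand, and whether counting used strand is not given in the sources used here, so these are less certain. They were NDUFB1, NDUFA2 (100305294), NDUFC2, both copies of NDUFS6 and of NDUFA3, NDUFAF1, NDUFS1 (110538823), and NDUFV2 (110509146 and 110509147, which overlap each other).

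Libraries held 45.4 M to 70.4 M counts. R3h replicate 3 stood apart from the rest. It correlated with the rest of its group at a mean r of 0.733, reached 10 counts in 21443 genes, fewer than any other library, and spent 32.3% of its counts on its top 10 genes. It was the library with the highest scaled level in 51 of the 73 tested complex I genes, so calls and medians of R3h are given with and without it. The share of all tested genes that were highest in this library is not given here, so that count describes the members alone. Libraries were scaled by the trimmed mean of M values (TMM) for fold changes, for sums by role and wherever the TMM scale or a scaled level is named. Other levels, among them those of single genes, are deposited FPKM, which are scaled to library totals instead. This matters most for H12h, where the median of all 17502 tested genes against N was -0.35 on the log2(FPKM + 1) scale and -0.07 in edgeR. In R3h the corresponding medians were -0.29 and -0.04. Calls below are adjusted p-values under 0.05 of edgeR's quasi-likelihood test after Benjamini-Hochberg adjustment over all tested genes, and fold changes are log2 ± SE.

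In R3h against N, 23 of the 73 tested genes rose and 0 fell, where 3.55% of all tested genes were called higher and 1.79% lower. Most of those that rose encode accessory subunits. The called genes were 20 of 47 accessory, 2 of 12 core, 0 of 9 assembly and 1 of 5 complex IV-associated genes. The median log2 fold change was 1.09 over the 73 genes and -0.04 over all genes tested, and 66 of the 73 values were positive. At an unadjusted p under 0.05, 51 were higher and 0 lower, where 14.2% of all tested genes were higher and 12.3% lower at that level. Of the 9 assembly genes, 3 were higher and 0 lower at that level. DESeq2 called 39 of the 73 members, where it called 2777 of the 17502 tested genes. Without R3h replicate 3, the median was 0.70 and 15 genes rose (3.55% of all tested genes), 13 of them accessory, 1 core and 1 assembly. The calls also rested on single N libraries, since 0 of the 73 were called without N replicate 1 and 0 without N replicate 3, and 0 when the N and R3h libraries were fitted alone. Over all tested genes, 11 and 7 calls were left in the fits without these N libraries, against 935 with all libraries.

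**Figure D1:**
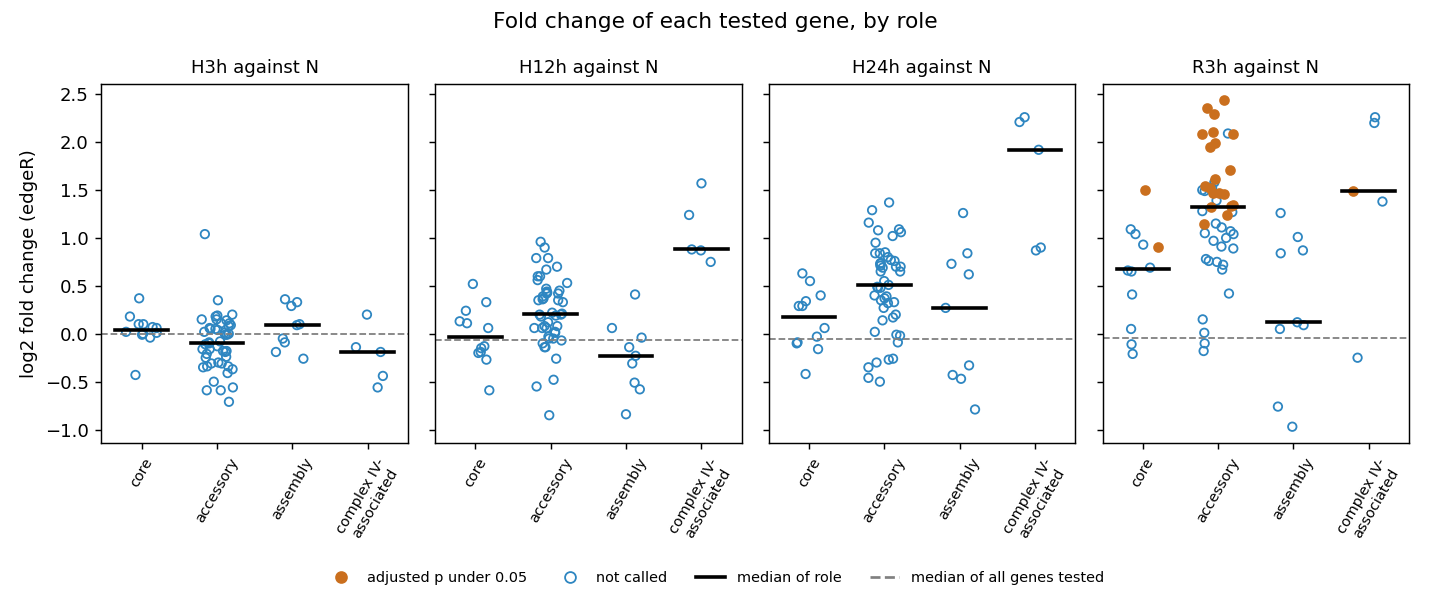
Log2 fold change (y axis, edgeR) of each tested gene against N, in columns by role and in a panel for each of H3h, H12h, H24h and R3h; each point is a gene, filled points have an adjusted p under 0.05, black bars are role medians and the dashed line is the median of all genes tested. Filled points occur in the R3h panel alone, where the accessory median is 1.32, the core median 0.68 and the assembly median 0.12 (0.87, 0.29 and 0.17 without R3h replicate 3).

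The 4 comparisons with N share its 3 libraries, so their values are set side by side. The median over the 73 genes was -0.01 in H3h and 0.18 in H12h, then 0.48 in H24h and 1.09 in R3h, against 0.00, -0.07, -0.05 and -0.04 over all genes tested. For the accessory genes the medians were -0.10, 0.21, 0.51 and 1.32. For the core genes they were 0.04, -0.04, 0.17 and 0.68, and for the assembly genes 0.09, -0.23, 0.27 and 0.12. The R3h medians without R3h replicate 3 were 0.87 for accessory, 0.29 for core and 0.17 for assembly genes. On the scale of deposited FPKM (limma on log2(FPKM + 1)) the median over the 73 genes in H12h was -0.32, the opposite sign. It was 0.12 in H24h and 0.57 in R3h on that scale, where the medians of all tested genes were -0.22 and -0.29.

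Summed by role on the TMM-scaled FPKM scale, the 48 accessory genes reached 712 ± 72.5 in N, 655 ± 79.2 in H3h and 871 ± 167 in H12h, followed by 1100 ± 105 in H24h and 1850 ± 949 in R3h (SD, n = 3 each). The core sum was 169 ± 10 in N, 173 ± 34.1 in H3h and 168 ± 26 in H12h, followed by 184 ± 13 in H24h and 248 ± 68.6 in R3h. The accessory sums of H24h and R3h lay above those of N in every library. The R3h libraries held core sums of 221, 197 and 326, all above the 177, 173 and 158 of N, while core sums of H24h and N overlapped. The accessory sums of the R3h libraries were 1470, 1150 and 2930. The assembly sum stayed low, at 23.8 ± 4.9 in N, 26.4 ± 2.4 in H3h and 19.9 ± 2.36 in H12h, followed by 28.7 ± 9.35 in H24h and 32.8 ± 5.93 in R3h, with libraries of N and R3h overlapping. On deposited FPKM, by contrast, the core sums of R3h (179, 195 and 299) overlapped with those of N (233, 169 and 200). The accessory sum of H24h replicate 2 (889) then lay below that of N replicate 1 (943). In H12h the deposited core and accessory sums were 137 ± 12.9 and 712 ± 98.4, against 201 ± 32 and 840 ± 92 in N.

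**Figure D2:**
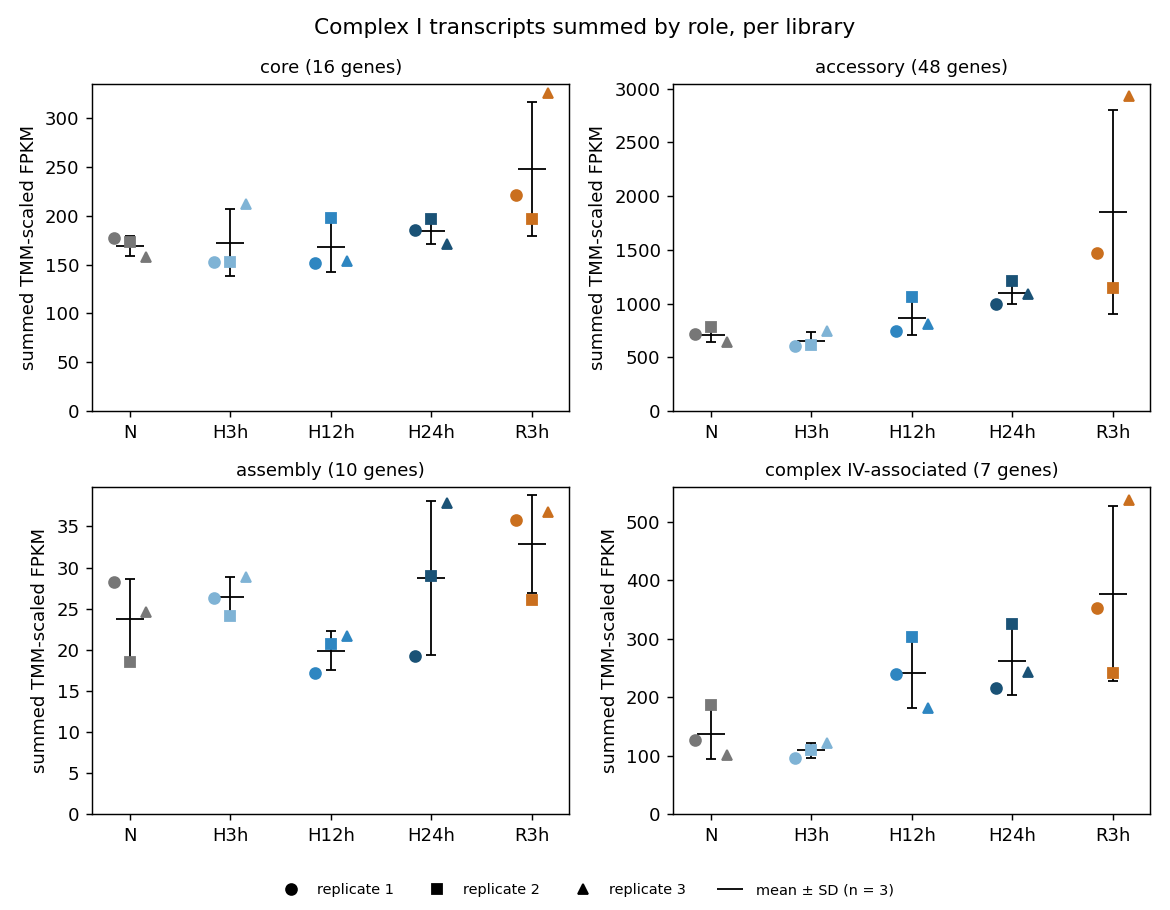
Summed TMM-scaled FPKM (y axis, from 0) of the core, accessory, assembly and complex IV-associated genes in each library of the 5 groups; symbols are replicates and bars are mean ± SD of 3 libraries. R3h replicate 3 (triangle) lies well above the other R3h libraries in the core, accessory and complex IV-associated panels. On this scale the core panel is nearly level up to H24h.

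The balance between accessory and core transcripts does not depend on how libraries are scaled. The summed accessory FPKM over the summed core FPKM was 4.04, 4.52 and 4.05 in N and 3.96, 4.0 and 3.52 in H3h. It was 4.89, 5.38 and 5.27 in H12h, 5.42, 6.14 and 6.40 in H24h and 6.67, 5.84 and 8.97 in R3h. All libraries of H12h, H24h and R3h lay above all libraries of N and H3h. This ratio moved with gene length. The 38 tested accessory genes with an implied length (that which count and FPKM imply) under 1000 bases gave ratios to core of 3.61 to 4.14 in N, 3.14 to 3.54 in H3h and 4.51 to 5.02 in H12h, followed by 5.09 to 6.12 in H24h and 5.40 to 8.59 in R3h. For the 9 tested accessory genes of 1000 bases and over, the ratio lay between 0.342 and 0.474 in all 15 libraries. The H24h libraries, at 0.348, 0.356 and 0.342, lay below all others. The median implied length was 681 bases for tested accessory genes, 1450 for core genes and 2410 for all tested genes.

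Over all tested genes, fold changes in R3h against N also moved with length. The median was 0.55 for the 1864 genes under 1000 bases, 0.29 for the 4838 genes of 1000 to 2000 bases and -0.20 for the 10791 genes of 2000 bases and over. Of the genes under 1000 bases, 12.6% were called higher, and 19 of the 38 short accessory genes were, with a median of 1.43 (1.03 without R3h replicate 3). The 2 core genes of that length had a median of 0.37, and 0 were called. Among genes of 1000 to 2000 bases, 5.0% were called higher, with 1 of 7 accessory genes (median 0.72) and 2 of 8 core genes (median 0.78). Leaving out R3h replicate 3, the medians in this length class were 0.26 for accessory and 0.31 for core genes. In H24h against N they were -0.26 for accessory and 0.18 for core genes. The part of transcript length in the difference between the roles was not tested.

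**Figure D3:**
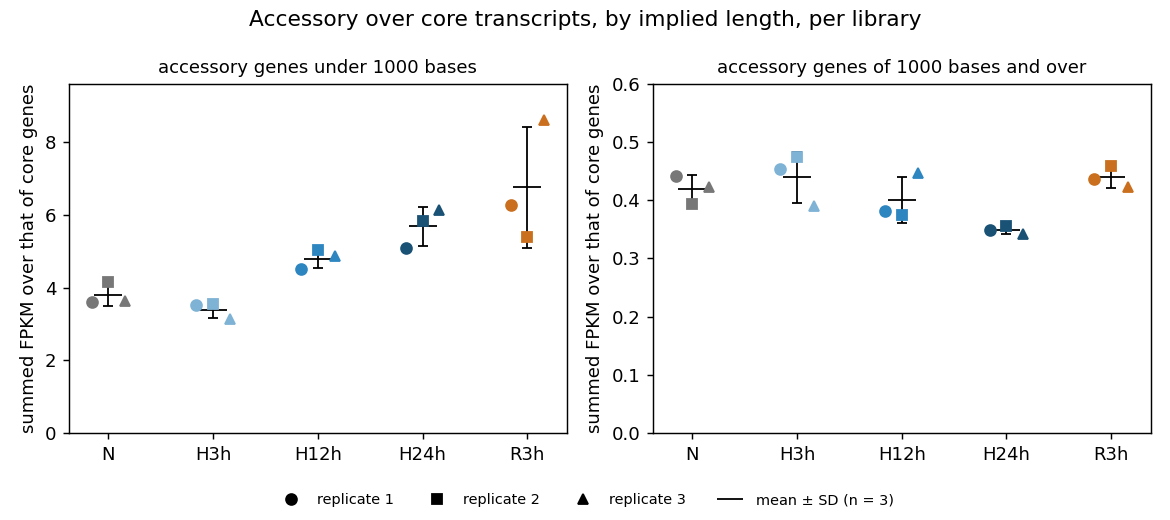
Summed FPKM of tested accessory genes divided by that of core genes (y axis, from 0) in each library, for 38 accessory genes with an implied length under 1000 bases (left) and 9 of 1000 bases and over (right); symbols are replicates and bars are mean ± SD of 3 libraries. The short genes lie at 3.14 to 4.14 in N and H3h and at 4.51 to 8.59 in H12h, H24h and R3h. The long genes lie between 0.342 and 0.474, with the H24h libraries lowest.

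Marker transcripts of red blood cells also varied between these groups. The 28 erythrocyte genes (globins, ALAS2, SLC4A1 and EPB42) had a mean log2(FPKM + 1) of 3.01 ± 0.464 in N, 2.94 ± 0.676 in H3h and 3.60 ± 0.674 in H12h, followed by 4.49 ± 0.70 in H24h and 3.97 ± 0.868 in R3h (SD, n = 3 each). Their summed FPKM ranged from 806 to 2790 in H24h and from 425 to 1880 in R3h, against 317 to 633 in N, and 26 of the 28 were tested, while 2, 2 and 1 were at 0 throughout those groups. The median log2 fold change of those 26 was 2.16 in H24h against N, 1.64 in R3h against N and -0.52 in R3h against H24h, with 1 of the 26 called in R3h against N. It was 1.42 in R3h against N, with 0 called, and -0.89 in R3h against H24h when R3h replicate 3 was left out. The median of the 73 complex I genes was 0.48 in H24h against N, 1.09 in R3h against N and 0.58 in R3h against H24h. Without that library it was 0.51, 0.70 and 0.26 in these comparisons. The 26 hepatocyte genes, which include the defining secreted proteins of liver, were high in all groups. On the same log2 scale their mean was 7.67 ± 0.373 in N, 7.89 ± 0.582 in H24h and 7.35 ± 0.831 in R3h. The H3h and H12h means were 7.16 ± 0.073 and 7.81 ± 0.292. For the 25 that were tested, the median log2 fold change in R3h against N was 0.52 (0.64 without R3h replicate 3), with 1 called higher. The edgeR median was thus positive where the mean of deposited values was lower than in N. The H3h median against N was -0.36, while those of H12h and H24h were 0.56 and 0.58. The lists of the other cell types had median fold changes in R3h against N of -0.51 (macrophage), -0.31 (cholangiocyte), 0.70 (endothelium), -0.25 (stellate cell) and -0.22 (lymphocyte). These were -0.05, -0.64, 0.58, -0.10 and -0.55 without R3h replicate 3. The part of red blood cells in the complex I values was not tested, and in these bulk samples fewer cells of a type and less RNA per cell cannot be told apart.

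The core subunits are the ones that bear the redox centres. NDUFS8 (110534439), which binds iron-sulfur clusters in the arm that reaches into the matrix, was among the most abundant core genes by mean FPKM and was not called. This copy had 48.8, 28.4 and 52.0 FPKM in N, 42.8, 26.5 and 58.0 in H3h and 29.1, 43.3 and 29.1 in H12h, followed by 42.1, 35.1 and 47.7 in H24h and 44.7, 32.8 and 49.7 in R3h. The groups overlapped fully, and its log2 fold change in R3h against N was 0.41 ± 0.35 (adjusted p = 0.47).

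A pair of core genes were called in R3h against N. NDUFS7 (110495579, chromosome 1, 13788259 to 13797277, plus strand, in the table's coordinates), whose product binds the last iron-sulfur cluster before ubiquinone, had 5.65, 4.05 and 4.6 FPKM in N, 4.73, 3.51 and 6.32 in H3h and 3.97, 5.02 and 5.25 in H12h, followed by 6.79, 5.39 and 5.41 in H24h and 7.07, 7.15 and 16.7 in R3h. All 3 R3h libraries lay above the N libraries, and replicate 3 was well above the others. The log2 fold change was 1.5 ± 0.36 (adjusted p = 0.034), and without R3h replicate 3 it was 1.01 (adjusted p = 0.055), no longer under the threshold. The other copy of NDUFS7 (110524166) was the more abundant one and was not called, at 0.69 ± 0.26 (adjusted p = 0.11).

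The second called core gene was NDUFS8 (110497443, chromosome 19, 14566241 to 14573354, minus strand). It had 16.6, 9.28 and 11.03 FPKM in N, 16.9, 11.97 and 14.02 in H24h and 16.7, 19.3 and 16.2 in R3h, so that deposited FPKM of R3h and N overlapped at 16.2 to 16.6, while TMM-scaled values did not. Its log2 fold change in R3h against N was 0.91 ± 0.25 (adjusted p = 0.048), and 0.99 (adjusted p = 0.038) without R3h replicate 3. This call was kept in 2 of the 15 fits that left out a library.

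The other core genes were not called, and some were high in R3h replicate 3 alone. NDUFV1, which binds the flavin and accepts electrons from NADH, was named after its values were seen, and had 23.0, 21.3 and 21.1 FPKM in N, 19.8, 11.5 and 16.9 in H24h and 12.9, 19.8 and 14.5 in R3h. Its log2 fold change in R3h against N was -0.11 ± 0.25 (adjusted p = 0.81). NDUFS1 (110538823, chromosome 12, 87223128 to 87234383, minus strand), which carries iron-sulfur clusters of the electron path, had 32.3, 24.4 and 24.6 FPKM in N, 29.7, 24.5 and 29.3 in H3h and 13.6, 14.4 and 19.6 in H12h, followed by 20.4, 12.4 and 16.4 in H24h and 12.2, 27.3 and 15.5 in R3h. On that scale all H12h and H24h libraries lay below all N libraries, but with TMM scaling the value was -0.21 ± 0.28 (adjusted p = 0.65) in R3h against N and no comparison was called. It shares 9685 bases with EEF1B2 on the opposite strand, a translation elongation factor gene with 293 ± 283 FPKM in R3h and 66.0 ± 14.9 in N, so its reads may be mixed with those of EEF1B2 if counting ignored strand. Its less abundant copy (110528737) had 3.40, 5.23 and 15.4 FPKM in R3h, against 6.84, 3.33 and 4.73 in N, and a log2 fold change of 1.09 ± 0.44 (adjusted p = 0.14) that was 0.22 without R3h replicate 3. NDUFS3 (110506312), part of the arm in the matrix, was 0.93 ± 0.44 (adjusted p = 0.20) and 0.19 without that library. The more abundant copy of NDUFS3 (110526191) was at 1.04 in R3h against N and was not called. On the TMM scale it had 23.7, 16.4 and 51.1 in R3h, against 15.4, 15.4 and 13.3 in N. NDUFV2 (110509146), an iron-sulfur subunit beside NDUFV1, was 0.05 ± 0.36 (adjusted p = 0.94) in R3h against N.

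Among accessory genes, 20 of the 47 tested rose in R3h against N, and none of the remaining 27 was called. The 3 smallest p-values were those of NDUFB5, NDUFB4 (110489575) and NDUFB11 (110532337), which encode subunits of the membrane arm. NDUFB5 (110531654, chromosome 1, 5994093 to 5996699, minus strand) had 24.2, 23.8 and 24.1 FPKM in N, 21.2, 16.8 and 26.8 in H3h and 21.8, 31.0 and 27.3 in H12h, followed by 39.8, 41.8 and 61.6 in H24h and 64.8, 56.04 and 151 in R3h. N libraries were nearly equal on deposited FPKM but less so on the TMM scale, at 18.4, 24.3 and 19.0. On both scales every H24h and R3h library lay above every N library. The log2 fold change in R3h against N was 2.29 ± 0.39 (adjusted p = 0.017), and 1.75 (adjusted p = 0.017) without R3h replicate 3. In H24h against N it was 1.29 ± 0.38 (adjusted p = 0.12).

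NDUFB4 has 2 copies, and both rose in R3h against N. The copy 110489575 (chromosome 15, 7537019 to 7539199, plus strand) had 13.3, 10.5 and 9.87 FPKM in N, 10.1, 6.40 and 11.9 in H3h and 8.20, 11.1 and 12.2 in H12h, followed by 23.6, 20.6 and 26.0 in H24h and 36.2, 19.8 and 42.5 in R3h. H24h and R3h did not overlap with N, H3h or H12h. It had the smallest p of all members in the test for any difference between the 5 groups (adjusted p = 0.012). Its log2 fold change was 1.95 ± 0.35 (adjusted p = 0.018) in R3h against N, 1.78 (adjusted p = 0.020) without R3h replicate 3, and 1.37 ± 0.34 (adjusted p = 0.10) in H24h against N. The copy 110535445 (chromosome 11, 16949533 to 16951530, minus strand) had 26.9, 28.0 and 95.04 FPKM in R3h, against 20.4, 14.4 and 14.4 in N. Its log2 fold change was 1.99 ± 0.43 (adjusted p = 0.028), and 1.17 (adjusted p = 0.033) without R3h replicate 3, so the copies were nearly equal with all libraries and apart without that library.

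NDUFC2 (100305333, chromosome 27, 43179387 to 43211915, plus strand), a membrane-arm subunit, was the most abundant accessory gene. It had 71.5, 58.9 and 58.5 FPKM in N, 57.6, 57.9 and 58.9 in H3h and 38.8, 61.9 and 72.6 in H12h, followed by 93.6, 99.8 and 128 in H24h and 129, 109 and 181 in R3h. All H24h and R3h libraries lay above all libraries of the 3 other groups. The log2 fold change in R3h against N was 1.54 ± 0.31 (adjusted p = 0.022), and 1.35 (adjusted p = 0.029) without R3h replicate 3. It shares 745 bases with mid1ip1a on the opposite strand, a gene with 446 ± 380 FPKM in R3h and 661 ± 480 in N, whose log2 fold change was -0.29 ± 0.94 (adjusted p = 0.87).

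NDUFB3 (110530877, chromosome 8, 82490736 to 82491247, minus strand) shows how far a single library can carry a mean. It had 41.1, 32.4 and 39.7 FPKM in N, 35.5, 37.0 and 29.8 in H3h and 33.4, 37.2 and 37.6 in H12h, followed by 40.8, 46.7 and 61.8 in H24h and 67.7, 48.6 and 257 in R3h. The R3h libraries lay above those of N in each case, but replicate 3 was far above the other 2. The log2 fold change of 2.11 ± 0.49 (adjusted p = 0.032) became 1.08 (adjusted p = 0.048) without it. Its implied length was 160 bases, the shortest of the accessory genes, so its level on the FPKM scale is less certain than that of longer genes.

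**Figure D4:**
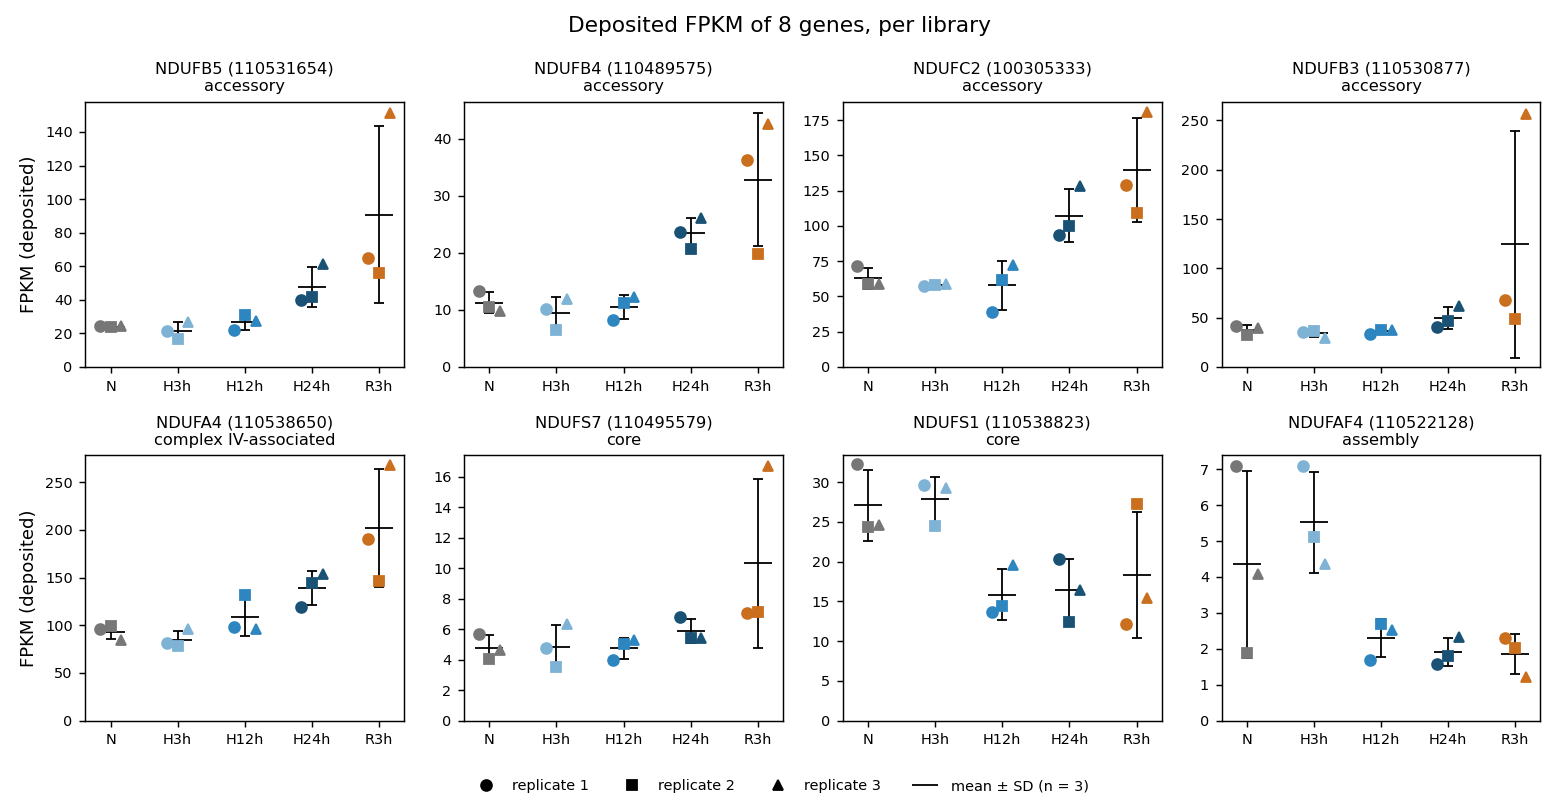
Deposited FPKM (y axis, from 0) of 8 genes in each library of the 5 groups, with identifiers and roles in the panel titles; symbols are replicates and bars are mean ± SD of 3 libraries. NDUFB5, NDUFB4 and NDUFC2 lie higher in H24h and R3h than in N, NDUFB3 and NDUFS7 are highest in R3h replicate 3, NDUFS1 lies lower in H12h and H24h than in N on this scale, and NDUFAF4 spreads widely within N.

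The other membrane-arm genes that rose had fold changes from 1.24 to 2.36. For NDUFB11 (110532337) the change in R3h against N was 1.47 ± 0.27 (adjusted p = 0.018), and 1.19 (adjusted p = 0.019) without R3h replicate 3. NDUFB11 (110492268), its other copy, was not called at 0.72 ± 0.34 (adjusted p = 0.20). NDUFB6 was called in 2 of its 3 copies, 110497183 at 2.08 ± 0.47 (adjusted p = 0.031) and 110497180 at 2.36 ± 0.55 (adjusted p = 0.032), and without R3h replicate 3 these were 1.14 (adjusted p = 0.043) and 1.20 (adjusted p = 0.055). The 3 copies had neighbouring identifiers and low levels, with at most 29.9 FPKM in any library. NDUFA11 rose in both copies, by 1.33 ± 0.28 (110503510, adjusted p = 0.026) and 1.24 ± 0.27 (110524223, adjusted p = 0.028), and both calls were kept without R3h replicate 3. NDUFA1 rose by 1.46 ± 0.33 (adjusted p = 0.029; 1.28 and adjusted p = 0.040 without that library).

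For 3 further genes of the membrane arm, as for NDUFB6 (110497180), the call was lost without R3h replicate 3. NDUFB2 (100301658) was at 1.47 ± 0.35 with all libraries (adjusted p = 0.033) and at 1.11 without that library (adjusted p = 0.054). NDUFB1 was at 1.71 ± 0.43 (adjusted p = 0.040) and at 0.87 without it (adjusted p = 0.069). NDUFS5 (100305212) was at 2.08 ± 0.50 (adjusted p = 0.035) and at 1.06 without it (adjusted p = 0.063).

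Accessory subunits of the matrix arm rose as well. NDUFA5 (110500198, chromosome 21, 20709276 to 20713507, minus strand) had 31.2, 25.3 and 26.3 FPKM in N, 24.4, 19.8 and 24.5 in H3h and 18.8, 34.1 and 24.4 in H12h, followed by 41.1, 48.3 and 45.6 in H24h and 69.1, 54.6 and 68.8 in R3h. R3h replicate 3 did not stand apart here. On deposited FPKM the 5 groups fell into a lower set of 3 and a higher set of 2 that did not overlap. On the TMM scale these sets overlapped, since H12h replicate 2 (47.8) lay above H24h replicates 1 and 3 (39.1 and 41.8). The log2 fold change of this copy in R3h against N was 1.61 in both fits, at 1.61 ± 0.33 (adjusted p = 0.022) with all libraries and at an adjusted p of 0.025 without R3h replicate 3. The copy 110490280 was called at 1.32 ± 0.32 (adjusted p = 0.037) and not without that library (1.09, adjusted p = 0.058).

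NDUFA6 (100301759, chromosome 12, 71656224 to 71658855, minus strand), a LYR-motif protein that anchors an acyl carrier protein, had 8.40, 5.07 and 5.67 FPKM in N, 7.72, 6.28 and 10.2 in H24h and 12.1, 10.9 and 13.4 in R3h. All R3h libraries lay above all N libraries. The change was 1.34 ± 0.25 (adjusted p = 0.020), and 1.30 (adjusted p = 0.020) without R3h replicate 3. The more abundant copy of NDUFA6 (110486449) had 18.2, 19.9 and 76.1 FPKM in R3h, against 18.0, 19.8 and 13.5 in N. On the TMM scale it had 22.4, 20.1 and 83.0 in R3h, against 13.6, 20.2 and 10.6 in N. Replicate 3 lay far above the rest on both scales, and this copy was not called (1.49 ± 0.48, adjusted p = 0.076).

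NDUFS6, a zinc-binding subunit added late in assembly, rose in both copies. The copy 110496462 (chromosome 18, 43935314 to 43938916, plus strand) had 17.7, 17.6 and 103 FPKM in R3h, against 11.8, 10.8 and 10.1 in N and replicate 3 stood far above the rest. Its log2 fold change of 2.44 ± 0.58 (adjusted p = 0.034) became 1.10 (adjusted p = 0.058). It shares 254 bases with mrpl36 on the opposite strand, a gene at 1.0 ± 0.41 (adjusted p = 0.14) in the same comparison. The copy 110488111 was called at 1.52 ± 0.33 (adjusted p = 0.027), and at 1.05 (adjusted p = 0.033) without that library. NDUFS4, a matrix-arm subunit whose loss causes Leigh syndrome in humans, was at 1.15 ± 0.31 (adjusted p = 0.049), and 0.70 (adjusted p = 0.085) without it. That call was kept in 1 of the 15 fits that left out a library.

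NDUFA7 (110524170, chromosome 5, 55402770 to 55406404, plus strand), another matrix-arm subunit, differed from these in its order of groups. It had 18.2, 16.8 and 18.6 FPKM in N, 18.6, 11.2 and 22.1 in H3h and 13.6, 16.1 and 13.1 in H12h, followed by 28.6, 27.9 and 40.2 in H24h and 31.2, 23.8 and 29.0 in R3h. H24h and R3h overlapped with each other and lay above the other groups. It was called over the 5 groups (adjusted p = 0.035) but in no single comparison, at 1.16 ± 0.30 (adjusted p = 0.11) in H24h against N and 1.04 ± 0.30 (adjusted p = 0.059) in R3h against N.

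Some accessory genes had fold changes near or below 0. NDUFA9 (110498273), which sits where the arms meet, had 4.15, 6.16 and 3.38 FPKM in R3h, against 7.06, 4.50 and 6.30 in N, and its log2 fold changes were -0.55 ± 0.26 in H12h against N (adjusted p = 0.35) and 0.01 ± 0.26 in R3h against N (adjusted p = 0.99). NDUFV3 had 0.54, 0.78 and 1.65 FPKM in H12h, against 3.19, 1.81 and 2.53 in N, without overlap, at -0.85 ± 0.39 (adjusted p = 0.34). Neither passed the test. Over the 27 accessory genes not called in R3h against N, fold changes reached from -0.18 in NDUFV3 to 2.09 in NDUFB10 (100301774), where the SE was 1.33. NDUFS5 (110496158) was nearest to the threshold, at 1.11 ± 0.30 with an adjusted p just above 0.05.

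Of the 9 tested assembly genes, 2 had positive fold changes in H12h against N, 5 in H24h against N and 7 in R3h against N, and 0 were called in each. They were low, and only NDUFAF8 and NDUFAF1 reached 8 FPKM in any library. NDUFAF8, a partner of NDUFAF5, had 10.1, 3.94 and 10.2 FPKM in N, 10.9, 6.68 and 8.38 in H3h and 4.16, 4.07 and 6.75 in H12h, followed by 6.94, 6.73 and 18.6 in H24h and 10.8, 9.04 and 15.99 in R3h. On this scale the groups overlapped. On the TMM scale the R3h libraries (13.3, 9.13 and 17.5) lay above those of N (7.64, 4.03 and 8.02). The log2 fold change of NDUFAF8 in R3h against N was 1.01 ± 0.38 (adjusted p = 0.12). NDUFAF1, which helps to join membrane-arm intermediates, had 4.88, 4.54 and 3.96 FPKM in R3h, against 7.34, 3.84 and 6.14 in N, at 0.05 ± 0.40 (adjusted p = 0.94).

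NDUFAF6 (110486724, chromosome 2, 15790819 to 15799847, plus strand) came nearest to a call. It had 0.99, 1.48 and 1.37 FPKM in N, 1.03, 1.15 and 1.61 in H3h and 1.44, 0.71 and 1.63 in H12h, followed by 2.81, 2.13 and 2.73 in H24h and 2.77, 2.63 and 1.84 in R3h. Every H24h and R3h library lay above every library of the 3 other groups. Its log2 fold change was 1.26 ± 0.38 both in H24h against N (adjusted p = 0.13) and in R3h against N (adjusted p = 0.066), and 1.45 (adjusted p = 0.044) in R3h against N without R3h replicate 3. Its other copy (110513878) was at 0.12 ± 0.43 (adjusted p = 0.89).

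NDUFAF3 and NDUFAF4 bind each other early in assembly of the quinone module. NDUFAF3 and 1 copy of NDUFAF4 had the lowest log2 fold changes of the 9 tested assembly genes in R3h against N, while the other NDUFAF4 copy (110529513) was at 0.87 ± 0.35 (adjusted p = 0.14). NDUFAF4 (110522128, chromosome 4, 56576793 to 56578504, minus strand) had 7.09, 1.88 and 4.07 FPKM in N, 7.09, 5.10 and 4.36 in H3h and 1.70, 2.69 and 2.52 in H12h, followed by 1.58, 1.80 and 2.33 in H24h and 2.29, 2.03 and 1.22 in R3h. On deposited FPKM, N spread widely and overlapped with H12h, H24h and R3h, whereas H3h did not overlap with them. On the TMM scale H3h replicate 3 (3.69) lay below H12h replicate 2 (3.77), so H3h and H12h overlapped. The log2 fold change of this copy was -0.76 ± 0.41 (adjusted p = 0.25) in R3h against N and -0.79 ± 0.41 (adjusted p = 0.30) in H24h against N. NDUFAF3 had 0.90, 0.61 and 0.25 FPKM in R3h, against 2.37, 1.17 and 1.29 in N, at -0.97 ± 0.51 (adjusted p = 0.24). NDUFAF7 (110529459), a mitochondrial methyltransferase, was at -0.84 ± 0.37 (adjusted p = 0.32) in H12h against N.

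NDUFA4 and NDUFA4L2 carry the complex I name, but NDUFA4 is known as a subunit of cytochrome c oxidase and NDUFA4L2, its paralogue, is induced under low oxygen in mammalian cells. NDUFA4 (110538650, chromosome 12, 79535801 to 79545476, plus strand) was the most abundant of the 81 genes. It had 95.7, 99.3 and 84.3 FPKM in N, 80.8, 78.1 and 95.8 in H3h and 97.8, 132 and 95.8 in H12h, followed by 119, 145 and 154 in H24h and 191, 147 and 268 in R3h. All H24h and R3h libraries lay above all N libraries. The change in R3h against N was 1.49 ± 0.35 (adjusted p = 0.033), and 1.28 (adjusted p = 0.051) without R3h replicate 3. A second copy (100653434) had 88.0, 85.8 and 217 FPKM in R3h, against 68.7, 79.0 and 42.0 in N, and was called over the 5 groups (adjusted p = 0.041) but not in R3h against N (1.38 ± 0.40, adjusted p = 0.059). The copy 110494772 stayed between 0 and 4.61 FPKM and was at -0.25 ± 1.15 (adjusted p = 0.91) in R3h against N and 2.26 ± 1.17 (adjusted p = 0.30) in H24h against N.

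NDUFA4L2 (110492352, chromosome 16, 52314445 to 52317385, minus strand) was low, with 0.34, 2.55 and 1.27 FPKM in N, 0.56, 1.0 and 1.82 in H3h and 1.52, 2.15 and 2.17 in H12h, followed by 3.03, 3.63 and 7.64 in H24h and 4.95, 4.75 and 6.50 in R3h. On deposited FPKM every H24h and R3h library lay above every other library, but N itself spread widely. On the TMM scale H12h replicate 2 (3.02) lay above H24h replicate 1 (2.89). Log2 fold changes of this copy were 0.88 ± 0.65 (adjusted p = 0.56) in H12h against N, 1.92 ± 0.66 (adjusted p = 0.16) in H24h against N and 2.2 ± 0.67 (adjusted p = 0.066) in R3h against N, and it was not called over the 5 groups (adjusted p = 0.055). The copy with the next identifier (110492353) had at most 1.37 FPKM in any library and had similar fold changes, at 2.21 ± 0.95 (adjusted p = 0.22) in H24h against N and 2.26 ± 0.95 (adjusted p = 0.15) in R3h against N.

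In the H groups, complex I genes did not pass the test against N. In H3h, 0 of 73 were called with edgeR, where 0.0% of all tested genes were called in either direction. At an unadjusted p under 0.05 the count was also 0 (2.19% of all tested genes). DESeq2 and limma-voom with library weights called 0 members, where they called 14 and 4 of all tested genes. The smallest p was that of NDUFA1, at -0.50 ± 0.32 (adjusted p = 1.0).

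In H12h, 0 of 73 were called by edgeR and 0 by DESeq2, where edgeR called 0.223% of all tested genes and DESeq2 827 of the 17502. At an unadjusted p under 0.05, 5 members were higher (background 7.96%) and 2 lower (6.35%), and the 5 included both abundant copies of NDUFA4, at 0.87 ± 0.40 (100653434, adjusted p = 0.34) and 0.75 ± 0.35 (110538650, adjusted p = 0.35). The other 3 were NDUFB2 (100301658) at 0.79 ± 0.34 (adjusted p = 0.31), NDUFB11 (110532337) at 0.60 ± 0.26 (adjusted p = 0.32) and NDUFA1 at 0.70 ± 0.32 (adjusted p = 0.34). The voom fit with library weights called 19 of the 73 members, where it called 6898 of the 17502 tested genes, a larger share.

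In H24h, edgeR called 0 of 73, where it called 0.2% of all tested genes. At an unadjusted p under 0.05, 21 members were higher and 0 lower, where 9.78% of all tested genes were higher and 9.88% lower at that level. Of the 21, 15 were accessory, 4 complex IV-associated, 1 core and 1 assembly genes. In 34 of the 73 genes all H24h libraries lay above all N libraries on the TMM scale, which held for 14.8% of all tested genes. The smallest p-values were those of NDUFB4 (110489575), NDUFA7 (110524170) and NDUFC2, the last at 1.09 ± 0.31 (adjusted p = 0.12). DESeq2 called 8 members higher, where it called 682 of the 17502 tested genes higher. The voom fit with library weights called 42 members, where it called 8199 of all tested genes in either direction. When R3h replicate 3 was left out of the fit, whose spread is shared over the groups, edgeR called 5 members higher in H24h against N, all of them accessory genes, where 2.03% of all tested genes were called higher. These were NDUFB5 (adjusted p = 0.040), NDUFB4 (110489575, adjusted p = 0.042), NDUFB11 (110532337, adjusted p = 0.045), NDUFC2 and NDUFA7 (110524170, both adjusted p = 0.048).

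Successive groups were compared as well. In H12h against H3h, 0 of 73 were called by edgeR (0.0171% of all tested genes) and 3 by DESeq2 (797 of the 17502 tested genes, a similar share). At an unadjusted p under 0.05, 12 were higher (background 8.82%) and 3 lower (7.15%). The smallest p-values were those of NDUFA1 (1.20 ± 0.32, adjusted p = 0.13) and NDUFA4 (100653434, 1.43 ± 0.40, adjusted p = 0.15), and on the lower side NDUFA9 (110498273, -0.73 ± 0.26, adjusted p = 0.22). Without R3h replicate 3, 2 rose (0.766% of all tested genes), NDUFA4 (100653434, adjusted p = 0.048) and NDUFS6 (110496462, adjusted p = 0.040). In H24h against H12h, edgeR called 0 (0.0% of all tested genes) and DESeq2 0 (804 of the 17502 tested genes). At an unadjusted p under 0.05, 5 were higher (background 6.5%) and 0 lower (8.0%), led by NDUFA7 (110524170, 0.95 ± 0.30, adjusted p = 0.18).

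In R3h against H24h, 0 of 73 were called by edgeR, where 0.0% of all tested genes were, and DESeq2 called 2 (51 of the 17502 tested genes). At an unadjusted p under 0.05, 22 were higher and 0 lower, where 5.23% of all tested genes were higher and 2.14% lower. The median was 0.58, and 68 of 73 values were positive. Without R3h replicate 3 the median was 0.26. The smallest p-values were those of NDUFB6, where 110497183 had 6.58, 8.76 and 29.9 FPKM in R3h, against 3.91, 2.31 and 4.38 in H24h. Its groups did not overlap, and its fold change of 2.17 ± 0.48 (adjusted p = 0.52) was 1.21 (adjusted p = 0.62) without that library. On the lower side, NDUFA4 (110494772), a copy with low levels, was at -2.51 and was not called. On the TMM scale it had 1.0, 0.717 and 0 in R3h, all below the 2.11, 3.72 and 4.23 of H24h.

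In the test for any difference between the 5 groups, 23 of the 73 genes were called, where 7.24% of all tested genes were. They were 20 accessory genes, 1 core gene and 2 complex IV-associated genes, and 42 of the 73 passed at an unadjusted p under 0.05, where 29.0% of all tested genes did. Without R3h replicate 3, 21 members were called, where 15.3% of all tested genes were. The highest group mean on the TMM scale was that of R3h in 43 of 47 accessory, 9 of 12 core, 4 of 9 assembly and 4 of 5 complex IV-associated genes. These counts were 38, 9, 3 and 2 without R3h replicate 3. The lowest mean was that of H3h in 27 of the 47 accessory genes and that of H12h in 5 of the 9 assembly genes. Shares over all tested genes are not given for these counts of highest and lowest means, so they are not read as particular to complex I.

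The 5 genes most like NDUFB4 (110489575) across the 15 libraries, by Pearson's r of log2 CPM and thus as a description over libraries that share groups, were SOCS6 (0.97), COX5A (110526359, 0.965), a ferritin middle subunit (100136294, 0.965) and 2 genes without a name, 110485776 (0.968) and 110520055 (0.963). None met the rule for complex I genes, and what the 2 genes without a name encode is not known here.

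For 27 names with at least 2 tested copies, the signs of the fold changes of the most abundant copies were compared. They differed in 11 names in H3h against N, 8 in H12h against N and 5 in H24h against N. In R3h against N, where 66 of the 73 members were positive, both copies had positive fold changes in 24 names, and the signs differed in NDUFA9, NDUFAF4 and NDUFS1. Both copies were called in 4 names and 1 of the 2 in 8, and in 2 and 7 names without R3h replicate 3.

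**Figure D5:**
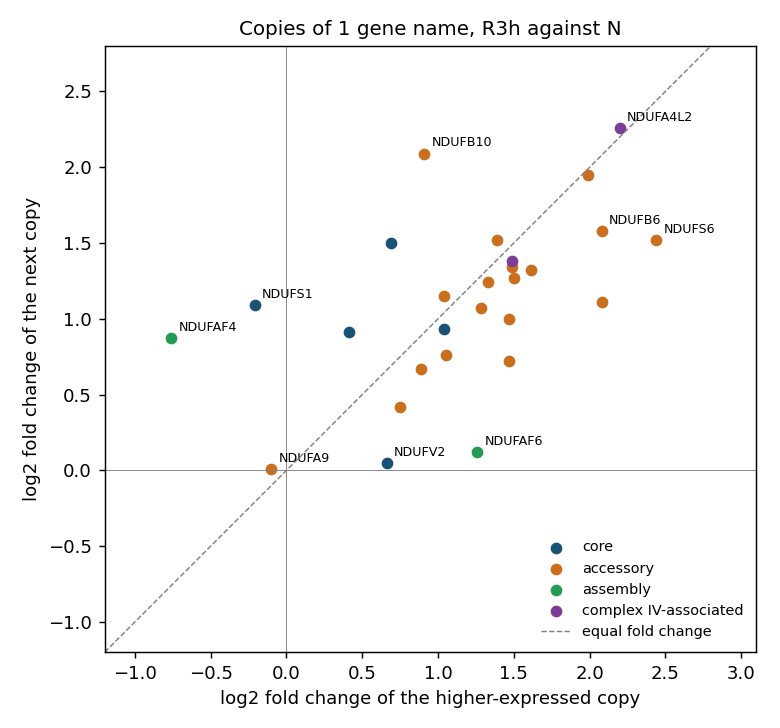
Log2 fold change in R3h against N (edgeR) of the more abundant copy (x axis) and the next copy (y axis) for 27 gene names, coloured by role; the dashed line marks equal change. Most points lie in the upper right, and NDUFAF4 and NDUFS1 lie left of the vertical line with a positive second copy.

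The share of a name's FPKM that came from each copy also changed for some names. These were picked after their values were seen and carry no test. NDUFB11 (110532337) made up 57.5% ± 7.56 of its name's FPKM in N, 56% ± 1.4 in H3h and 66.7% ± 6.34 in H12h, followed by 76.8% ± 4.13 in H24h and 69.8% ± 3.18 in R3h (SD, n = 3 each). NDUFB4 (110489575) made up 40.8% ± 1.34 in N, 41.1% ± 4.31 in H3h and 41.8% ± 4.73 in H12h, followed by 53.3% ± 1.59 in H24h and 43.2% ± 13.3 in R3h, the last with 57.4%, 41.4% and 30.9% in its libraries. NDUFAF4 (110522128) made up 73.0% ± 9.82 in N, 78.3% ± 4.35 in H3h and 69.9% ± 5.99 in H12h, followed by 53.7% ± 5.74 in H24h and 53.5%, 63.0% and 33.5% in the libraries of R3h. For NDUFB11, NDUFB4 and NDUFAF4 the H24h shares lay outside the range of the N shares in every library.

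Other complexes of the chain were read for comparison, in R3h against N. Of the tested genes, 12 of 20 rose in complex IV (median log2 fold change 1.42), 9 of 32 in ATP synthase (0.92), 5 of 22 in complex III (0.78) and 1 of 8 in complex II (0.47), and 0 fell in each, where 3.55% of all tested genes were called higher. Without R3h replicate 3, the counts were 10 in complex IV (median 1.08), 7 in ATP synthase (0.62), 5 in complex III (0.53) and 1 in complex II (0.37). The accessory genes of complex I stood at 20 of 47 with a median of 1.32, and at 13 with 0.87 without that library. The called gene of complex II was SDHC, a membrane anchor of succinate dehydrogenase, at 1.48 ± 0.26 (adjusted p = 0.018). COX5B of complex IV, at 1.70 ± 0.31 (adjusted p = 0.018), UQCRB of complex III (110496618), at 2.30 ± 0.42 (adjusted p = 0.018), and Atp5g3 (110527607), the ring subunit of ATP synthase, at 1.99 ± 0.34 (adjusted p = 0.017), had the smallest p of their complexes. Of 7 tested assembly genes of complex I without the nduf name, 0 were called (0 at an unadjusted p under 0.05), with a median of -0.17 (-0.02 without R3h replicate 3). Of 5 tested regulators of mitochondrial biogenesis 0 were called in R3h against N (2 higher at an unadjusted p under 0.05), with a median of -0.32 (-0.46 without that library), and Ppargc1b was called over the 5 groups (adjusted p = 0.039).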

How the data were processed

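The deposited table holds raw counts per gene and, beside them, FPKM computed by the authors, per the file headers. The implied length of a gene varied between libraries by a median of 0.195% (coefficient of variation over 11274 genes), and it may be an effective length. TopHat2 2.1.1 and Bowtie2 2.2.8 were used per the submitters' processing notes. Not given in the sources used here were counting tool, genome build and annotation, and coordinates are the table's own. Of the 81 identifiers, 79 were matched to RefSeq genes (assembly USDA_OmykA_1.1), for names only.

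Counts of the 17502 genes that averaged 0.5 FPKM or more (at least 99% of every library's counts) were fitted with edgeR 4.0.16 in R 4.3.3, with TMM scaling, all 15 libraries and 5 group means. P-values are two-sided. The SE was approximated from each log2 fold change and the root of its F statistic. Alternatives used DESeq2 1.42.0, limma 3.58.1, other scalings and filters, a replicate block and each library left out in turn. The fit was also run on simulated counts with changes placed in H12h alone, and its outcome is not given here. The counts were drawn with the fit's own estimated spread. They therefore cannot show how the fit handles a library that stands apart, such as R3h replicate 3. No library pair held identical values.

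The members, roles, pathway and marker lists were chosen with earlier results of these data known. Genes named are those called, the 2 most abundant and 3 with the smallest p per role, the complex IV-associated ones, the 3 with the smallest p per direction and comparison, and those not tested. The 5 genes most like the member with the smallest p over the groups were also named. Of the 52 members so named, some appear in the text by their role's range alone, and 1 is not reported here.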

Additional observations from a re-analysis of the deposited data

How the results depend on the processing

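RLE and upper-quartile scaling and testing without a filter kept every median on its side. Of the 23 members called in R3h against N, these settings kept 23, 21 and 20, and RLE scaling added 1. In R3h against N, the 23 called members became 39 with DESeq2, 43 with limma-voom and library weights, 14 with limma on log2(FPKM + 1), 7 on log2(FPKM + 0.1) and 0 when only the N and R3h libraries were fitted. Of all 17502 tested genes, these fits called 2777, 6350, 1517, 1480 and 0, against 935 in the main fit. Over the 5 groups, the 23 became 41 (DESeq2), 57 (voom), 14 and 6 (limma). There the fits called 4502, 12104, 1741 and 1163 of all tested genes, against 1267 in the main fit. Where edgeR called 0, DESeq2 called 8 in H24h against N, 3 in H12h against H3h and 2 in R3h against H24h, and voom called 19 in H12h against N, 42 in H24h against N, 15 in H12h against H3h and 22 in H24h against H12h. In the same order, DESeq2 called 1261, 797 and 51 of all tested genes, and voom 6898, 8199, 3491 and 4510. The member counts in H12h against H3h were near these shares, and the voom count in H12h against N was below its share. On deposited FPKM, which follow library totals, medians were -0.32 and -0.34 in H12h against N and -0.33 and -0.40 in H12h against H3h (pseudocounts 1 and 0.1), the opposite sign to edgeR, 0.12 and 0.15 in H24h against N, and 0.57 and 0.64 in R3h against N. With a mean FPKM of at least 5 the R3h against N median was 0.80 over 55 members, and voom gave 0.27 in R3h against H24h. The causes were not tested.

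Leaving out a library gave 0 to 36 called members in R3h against N (0 without N replicate 1 or 3, 13 without R3h replicate 1, 15 without N replicate 2, H24h replicate 2 or R3h replicate 3, 36 without R3h replicate 2). It gave 0 to 5 in H24h against N, 0 to 2 in H12h against H3h and 2 to 30 over the 5 groups (2 without N replicate 3 or H3h replicate 1). Medians ranged from 0.70 to 1.33 in R3h against N and from 0.26 to 0.81 in R3h against H24h. Without R3h replicate 3, 14 of the 23 calls remained. Over all tested genes, calls in R3h against N ranged from 7 without N replicate 3 to 2451 without R3h replicate 2.

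Deviations from group means in same-numbered libraries correlated at r from -0.206 to 0.367 over 30 pairs (median 0.0255). In pairs of other numbers r ranged from -0.408 to 0.392 over 60 pairs (median -0.0272). Of the 15 libraries, 9 were closest to their own number. These values are a description and cannot decide whether the numbers pair libraries. With a replicate block, 17 members were called in R3h against N, 16 of them among the 23, and 10 over the 5 groups. That fit called 628 and 613 of all tested genes in these tests. Over the 73 tested members, the 7 comparisons between a pair of groups and all alternatives, 12649 single-gene values were computed, of which 180 lost a call, 176 gained one and 0 called values reversed.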

Other observations

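Some members varied between libraries in ways that belong to no comparison, and they were picked after their values were seen. NDUFA3 (110508696 and 110536756) changed its balance of copies from library to library. The share of 110536756 in the FPKM of that name was 18.6%, 14.2% and 70.1% in N, 16%, 45.7% and 22.2% in H3h, 28.1%, 8.54% and 34.0% in H12h, 58.1%, 16.4% and 37.4% in H24h and 50.3%, 19.1% and 20% in R3h. NDUFB10 (100301774) was listed at 0 FPKM in N replicate 2 and in H24h replicate 1, and between 2.15 and 10.98 FPKM in the other libraries. EEF1B2, which overlaps NDUFS1 (110538823), was called in R3h against N, at 2.54 ± 0.57 on the log2 scale (adjusted p = 0.030, edgeR), while NDUFS1 was not.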
